A study of Mus musculus with 11 samples.

Results

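The activator protein 1 (AP-1) family of transcription factors was followed through sorted endothelium of mouse bone marrow, in healthy bone and in bone carrying mammary cancer. Its members here were the FOS genes *Fos*, *Fosb*, *Fosl1* and *Fosl2*, the JUN genes *Jun*, *Junb* and *Jund*, and *Atf3*. They were picked by Entrez gene ID and make up 8 of the 27179 rows of the gene count table. Of these, 7 were among the 11949 genes that passed the filter on low counts, and *Fosl1* was not.

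AP-1 proteins carry a basic region that contacts DNA and a leucine zipper through which they pair. FOS proteins bind DNA only as partners of JUN proteins, whereas JUN proteins can also pair with each other and with ATF family proteins, and the pairs recognise a short palindrome first described as the phorbol ester response element. Several of the genes are immediate early genes, whose transcripts rise within minutes of growth factor, cytokine, shear or stress signals and then decay quickly, and in endothelium they are known for responses to flow, to vascular endothelial growth factor and to inflammatory cytokines.

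Total RNA was sequenced from CD31hi EMCNhi endothelial cells, the phenotype of the type H capillaries of bone marrow. Met libraries (n = 3) came from tumour-infiltrated marrow of BALB/c mice carrying RFP-labelled 4T1.2 cells, a bone-seeking mammary cancer line of the same strain, and non-met libraries (n = 6) from the neighbouring marrow without RFP signal in tumour-burdened bones. Control libraries (n = 2) came from BALB/c mice of matched age with no tumour. The sources name no genetic alteration and no drug in any of these groups, and the mice were 8 to 10 weeks old. A library was made from a small number of sorted cells of a pool of 1 to 4 mice, with 2 pools of healthy and 4 pools of burdened mice. Among burdened mice, non-met 1 and 5 were made from pool 1, both non-met 2 and 6 as well as met 1 from pool 2, non-met 3 with met 2 from pool 3, and non-met 4 with met 3 from pool 4, so that libraries of a pool share animals and are not independent mice. Before the sort all marrow was digested with collagenase at a warm temperature, a step known to raise immediate early transcripts in many tissues, and its part in the levels below was not tested.

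Libraries held 733342 (non-met 4) to 19539761 (control 1) counts. The share of mitochondrial genes was 5.40% and 6.20% for the controls, 6.72% to 17.8% for non-met and 4.33% to 9.56% for met libraries. Of the 13 endothelial markers, all were detected in each group, with summed levels of 9427 to 13779.9 counts per 1000000 (CPM, scaled by the trimmed mean of M values) in control, 10601 to 17789 in non-met and 14936 to 17801 in met libraries. The study's sort used antibodies to gate out haematopoietic cells. Granulocyte markers nonetheless moved with the groups, at 80.2 to 388 CPM in control, 397 to 5146 in non-met and 35.6 to 203 in met libraries. *Ltf*, *Elane*, *Mpo*, *Mmp8*, *Cxcr2* and *Csf3r* of that list were at 0 in all met libraries, and *Ltf*, *Retnlg*, *Cxcr2* and *Ly6g* in both controls. Summed stromal markers were also higher in the controls, at 4069.8 to 10782 CPM, than in non-met (1234 to 3886 CPM) and met (491 to 2584 CPM) libraries. Most of the control sum was *Cxcl12*, at 3224 and 8720 CPM. Not all of the list followed, as *Acta2* reached 320 CPM in met libraries against at most 5.38 CPM in control. The highest summed level in any library was 503 CPM for monocyte markers, 205 for red cells, 140.4 for epithelial cells, 99.99 for megakaryocytes, 97.7 for B cells and 88.7 for T and NK cells. Epithelial markers, which mammary tumour cells also express, ran from 1.03 to 19.5 CPM in control, 1.44 to 140.4 in non-met and 11.5 to 74.1 in met libraries. In RNA from sorted bulk samples, fewer cells of a type and less RNA per cell cannot be told apart.

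The larger members were abundant transcripts in healthy endothelium. In CPM per kilobase of gene length (RPKM), the scale on which genes can be compared with each other, the controls held 1809 and 1281 for *Fos*, 1149.6 and 1219.8 for *Junb*, 758 and 691 for *Jun*, 319 and 329 for *Jund* and 278 and 246 for *Fosb*. *Fos* then stood at rank 13 and 19 of 23464 genes in the controls. *Atf3* (15.5 and 44.1 RPKM) and *Fosl2* (36.9 and 14.96 RPKM) were low and uneven, and *Fosl1* had no reads. The 4 leading genes, *Fos*, *Junb*, *Jun* and *Jund*, also had the highest median RPKM in the non-met and in the met group.

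All members together took 1.09% ± 0.0446 (SD, n = 2) of the counts in control libraries, 0.714% ± 0.0860 (SD, n = 6) in non-met libraries and 0.432% ± 0.114 (SD, n = 3) in met libraries. The highest met library, at 0.559%, lay below the lowest non-met library, at 0.570%, and all non-met libraries lay below both controls. As a share of the summed RPKM of the family, *Fos* took 37.5% in control, 42.2% in non-met and 37.9% in met libraries, *Junb* took 29.1%, 30.2% and 26.5%, and *Jun* took 17.7%, 11.8% and 16.4%. *Fosb* took 6.40%, 4.43% and 3.21% in that order, *Jund* 7.95%, 8.99% and 11.3%, *Fosl2* 0.618%, 0.935% and 2.45%, and *Atf3* 0.754%, 1.46% and 2.27%. The ratios *Fos* to *Jun*, *Junb* to *Jun*, *Fos* to *Jund*, *Junb* to *Jund* and *Fosb* to *Fos* were compared in the 3 pairs of groups by exact two-sided permutation tests. None of the 15 tests passed after Benjamini-Hochberg adjustment, with adjusted p from 0.357 to 1. Before adjustment, the smallest exact p possible was 0.0119 for met against non-met, 0.0357 for non-met against control and 0.1 for met against control. No test could therefore pass alone over 15 tests, and this outcome does not show that the ratios are alike. In *Fos* to *Jun*, which had the lowest exact p before adjustment (0.0595), the mean ratio was 3.85 ± 1.33 (SD, n = 6) in non-met and 2.34 ± 0.205 (SD, n = 3) in met libraries, and in *Junb* to *Jun* 2.74 ± 0.916 (SD, n = 6) in non-met and 1.70 ± 0.641 (SD, n = 3) in met libraries.

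**Figure D1:**
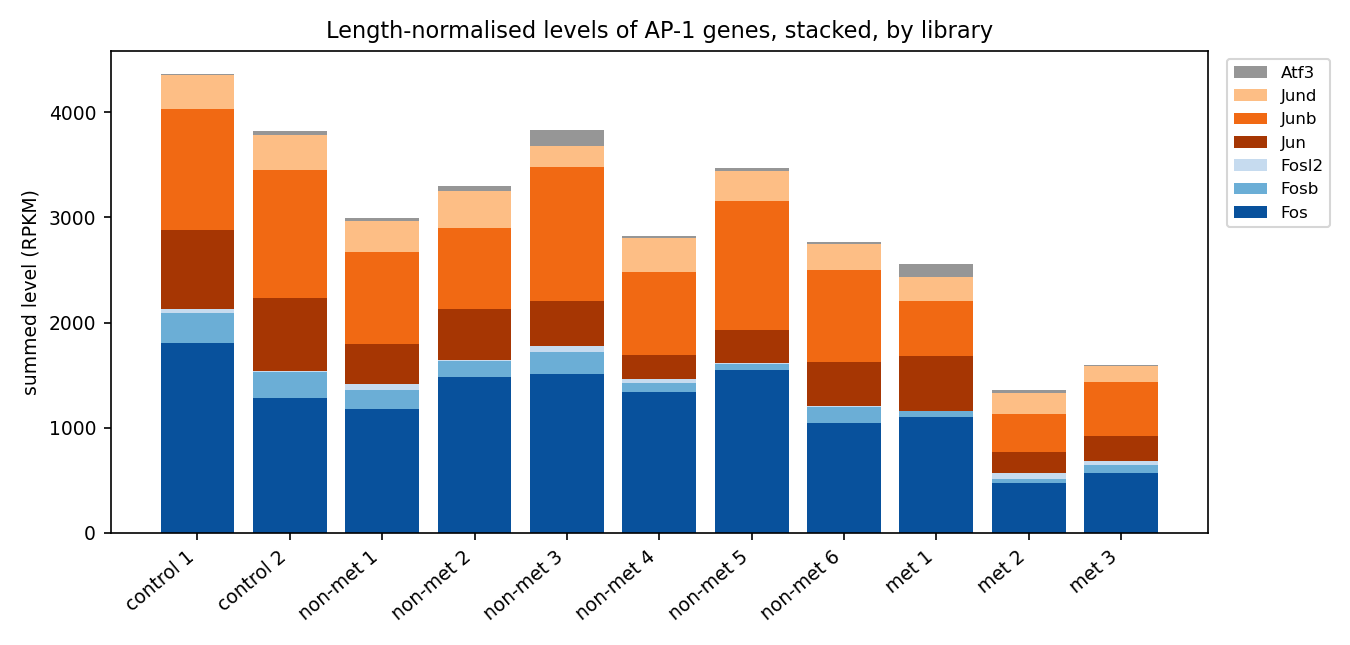
Stacked bars give the RPKM of each AP-1 gene in each of the 11 libraries, from control on the left to met on the right. The sums run from 3825 to 4367 in control, 2764 to 3831 in non-met and 1357 to 2554 in met libraries, with *Fos* and *Junb* the largest segments in most bars.

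The sequences before the start sites of the genes are shown for the 3 immediate early members whose levels are described first, *Fos*, *Jun* and *Junb*, and for *Atf3*, which is also inducible but did not pass the test in any comparison. Each line gives the 140 bases before the RefSeq start of the gene in GRCm38.p6, a C57BL/6J reference whereas the mice were BALB/c, read 5′ to 3′ along the gene. Capitals mark TGACG on either strand (CGTCA on the other), TGACATCA on either strand, and TATAAA on the strand of the gene.
Fos (chr12:85473750-85473889, forward strand): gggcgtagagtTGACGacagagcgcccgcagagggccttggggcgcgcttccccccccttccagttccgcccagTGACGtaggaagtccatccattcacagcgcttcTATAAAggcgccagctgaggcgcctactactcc
Jun (chr4:95052223-95052362, reverse strand): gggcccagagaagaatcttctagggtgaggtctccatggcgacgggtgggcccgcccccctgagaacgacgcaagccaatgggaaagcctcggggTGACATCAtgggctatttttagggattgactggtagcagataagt
Junb (chr8:84978749-84978888, reverse strand): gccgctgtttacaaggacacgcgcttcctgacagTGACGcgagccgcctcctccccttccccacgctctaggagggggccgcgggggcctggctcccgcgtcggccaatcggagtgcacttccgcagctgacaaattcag
Atf3 (chr1:191183334-191183473, reverse strand): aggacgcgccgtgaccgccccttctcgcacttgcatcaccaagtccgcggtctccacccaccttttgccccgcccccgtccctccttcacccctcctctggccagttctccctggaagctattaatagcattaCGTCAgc
The RefSeq table held such a sequence for 7 of the 8 members. In the 250 bases before the start, the canonical AP-1 site TGACTCA was found on neither strand of any of the 7, against 4.46% of 32851 promoters, and the cyclic AMP response element TGACGTCA was in none of them, against 1.55%. TGACG, the first part of that element, was present in *Fos*, *Fosb*, *Junb* and *Atf3*, that is in 4 of 7, and in 17.8% of all promoters. The variant TGACATCA stood in *Jun*, 45 bases before the start, and in 2.93% of all promoters. *Fos* held TATAAA 33 bases before the start, as did 7.59% of promoters anywhere in the window. For *Fosb* the start used in the table lies inside the annotated span of the gene, 73 bases from its outer end, so that the TGACG found 60 bases before that start is within the gene, and its sequence is not shown. TGACATCA and TATAAA were looked for after the sequences had been read. A match of letters is a description and no measure of binding, and no match says only that these letters are not in this window.

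The comparison of met with non-met endothelium asks what differs between infiltrated marrow and tumour-free marrow of burdened animals, although pool 1, the source of non-met 1 and 5, gave no met library. *Fos*, *Jun* and *Junb* were lower in met libraries by voomLmFit, the test named in the study's methods, and no member was higher. That is 3 of the 7 members tested, where 0.142% of all genes tested were called lower, 0.276% higher and 0.418% in either direction. On simulated counts of these depths, more of the genes that voomLmFit called had been left unchanged than changed. Nearly all genes called by limma-trend had been changed, but both tests left most of the changed genes uncalled. Calls of the main voomLmFit fit are therefore given with their limma-trend value or their loss under that test. Such a loss does not show that a gene is unchanged. The 3 calls were not equally firm. Only *Junb* had all met libraries below all non-met libraries, as had 0.444% of all genes tested. The fitted difference was below 0 for 6 of 7 members, as for 48.2% of all genes, and the median over the 7 was −0.93 on the log2 scale against 0.08 over all genes.

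*Fos* (Entrez 14281, chr12:85473890-85477274, forward strand, 4 exons), the founding FOS gene, stood at 2317, 995 and 1186 CPM in met 1, 2 and 3. Non-met libraries ranged from 2188 to 3238 CPM with a median of 2952. Met 2 and met 3 lay far below every non-met library, whereas met 1 lay above non-met 6, so that the groups overlapped. The fitted log2 fold change was −1.38 with a standard error (SE) of 0.147 (voomLmFit, adjusted p = 2.58e-06). Its mean log2 CPM was 10.45 ± 0.643 (SD, n = 3) for met against 11.45 ± 0.227 (SD, n = 6) for non-met libraries, with an exact two-sided permutation p of 0.0238 for the unweighted difference. With limma-trend, which gives each library the same weight, the adjusted p was 0.116, and over all alternatives tried the adjusted p ran from 1.07e-10 to 0.316. The voomLmFit call was lost without met 1 (adjusted p = 0.0928) and without met 3 (adjusted p = 0.0751).

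*Junb* (Entrez 16477, chr8:84976909-84978748, reverse strand, 1 exon), a JUN protein that activates less strongly than c-JUN and can restrain it, stood at 952, 669 and 952 CPM in the met libraries. In non-met libraries it ranged from 1412 to 2341 CPM with a median of 1613. No met library reached the lowest non-met library. The mean log2 CPM was 9.73 ± 0.294 (SD, n = 3) against 10.77 ± 0.320 (SD, n = 6), and the exact permutation p of 0.0119 for that difference of −1.05 is the smallest that 84 assignments allow. In voomLmFit the log2 fold change was −0.80 with an SE of 0.163 and an adjusted p of 0.0175. With limma-trend the adjusted p was 0.116, and over all alternatives it ran from 0.000236 to 0.344. The voomLmFit call was lost without met 1 (adjusted p = 0.0656), met 2 (0.117) or met 3 (0.261), and with other scalings of the libraries (RLE 0.0650, library size 0.166).

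*Jun* (Entrez 16476, chr4:95049036-95052222, reverse strand, 1 exon), which encodes c-JUN, overlaps the antisense gene *Junos*, and since the strand used in counting is not stated their reads cannot be told apart. Met libraries held 1673, 609 and 743 CPM, and non-met libraries 718 to 1554 CPM with a median of 1276. Met 1 was the highest of these 9 libraries and met 2 the lowest. The voomLmFit log2 fold change was −0.93 (SE 0.168, adjusted p = 0.00463), but the unweighted difference was −0.35 with an exact permutation p of 0.405, and the call was lost once each mouse pool had its own term, a replicate block (log2 fold change −0.41, adjusted p = 1.00, voomLmFit). It was also lost without met 1, met 3, non-met 2, non-met 5 or non-met 6, with voomLmFit adjusted p of 0.0954, 0.147, 0.315, 0.0856 and 0.0682. Libraries of a pool and group were also summed, so that non-met libraries of the same pool counted once, while met and non-met stayed apart. *Jun* was then not called (voomLmFit adjusted p = 0.136). Nor was it called by voomLmFit with all rows kept (adjusted p = 0.0544). The same held within the 7 libraries with at least 5 CPM of the epithelial keratins *Krt8* and *Krt18* (0.778), a set chosen after the data were seen.

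The other 4 tested members did not pass. *Fosb* (chr7:19302696-19310118, reverse strand, 4 exons), whose protein also exists in a long-lived truncated form, stood at 194, 147 and 287 CPM in met and 227 to 795 CPM in non-met libraries, with 1 non-met library among the met values. Its log2 fold change of −1.45 had an SE of 0.483 and an adjusted p of 0.389 by voomLmFit, and the exact permutation p was 0.0476. *Jund* (chr8:70697739-70700616, forward strand, 1 exon), the JUN gene that is transcribed steadily in most resting cells, held 674, 591 and 438 CPM against 585 to 1019 CPM, and its fitted log2 fold change was −0.83 (SE 0.208, voomLmFit adjusted p = 0.101). It was called with no sample weights (voomLmFit adjusted p = 0.0128), without control 1 (0.0339) and without non-met 3 (0.0136), each of which gave 4 members called. Over all alternatives the log2 fold change of *Jund* ran from −0.95 to −0.26, and from −0.93 to −0.51 with each library left out. It overlaps the antisense gene *Gm11175*, with the same limit as for *Jun*.

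*Atf3* and *Fosl2* varied more within a group than between groups. *Atf3* (chr1:191170296-191183333, reverse strand, 4 exons), a stress-induced member that can repress as a dimer with itself, stood at 232, 43.8 and 18.8 CPM in met and at 36.4 to 292 CPM in non-met libraries. *Fosl2* (chr5:32136472-32157840, forward strand, 4 exons), which encodes the FOS-related antigen FRA-2, stood at 10.1, 352 and 268 CPM in met and at 39.1 to 343 CPM in non-met libraries. The fitted log2 fold changes were −1.17 (SE 1.09, adjusted p = 0.829) for *Atf3* and 0.63 (SE 0.977, adjusted p = 0.921) for *Fosl2* by voomLmFit. The 23 reads of *Fosl2* in met 1, against 1858 in met 2, show how far a gene of this level moved between libraries of a group. *Fosl1* (chr19:5447698-5455938, forward strand, 4 exons, overlapping *Ccdc85b*), the gene of FRA-1, had 1 read in non-met 3, 2 reads in met 1 and none in the other 9 libraries, where 3 reads would correspond to 0.147 to 5.43 CPM.

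**Figure D2:**
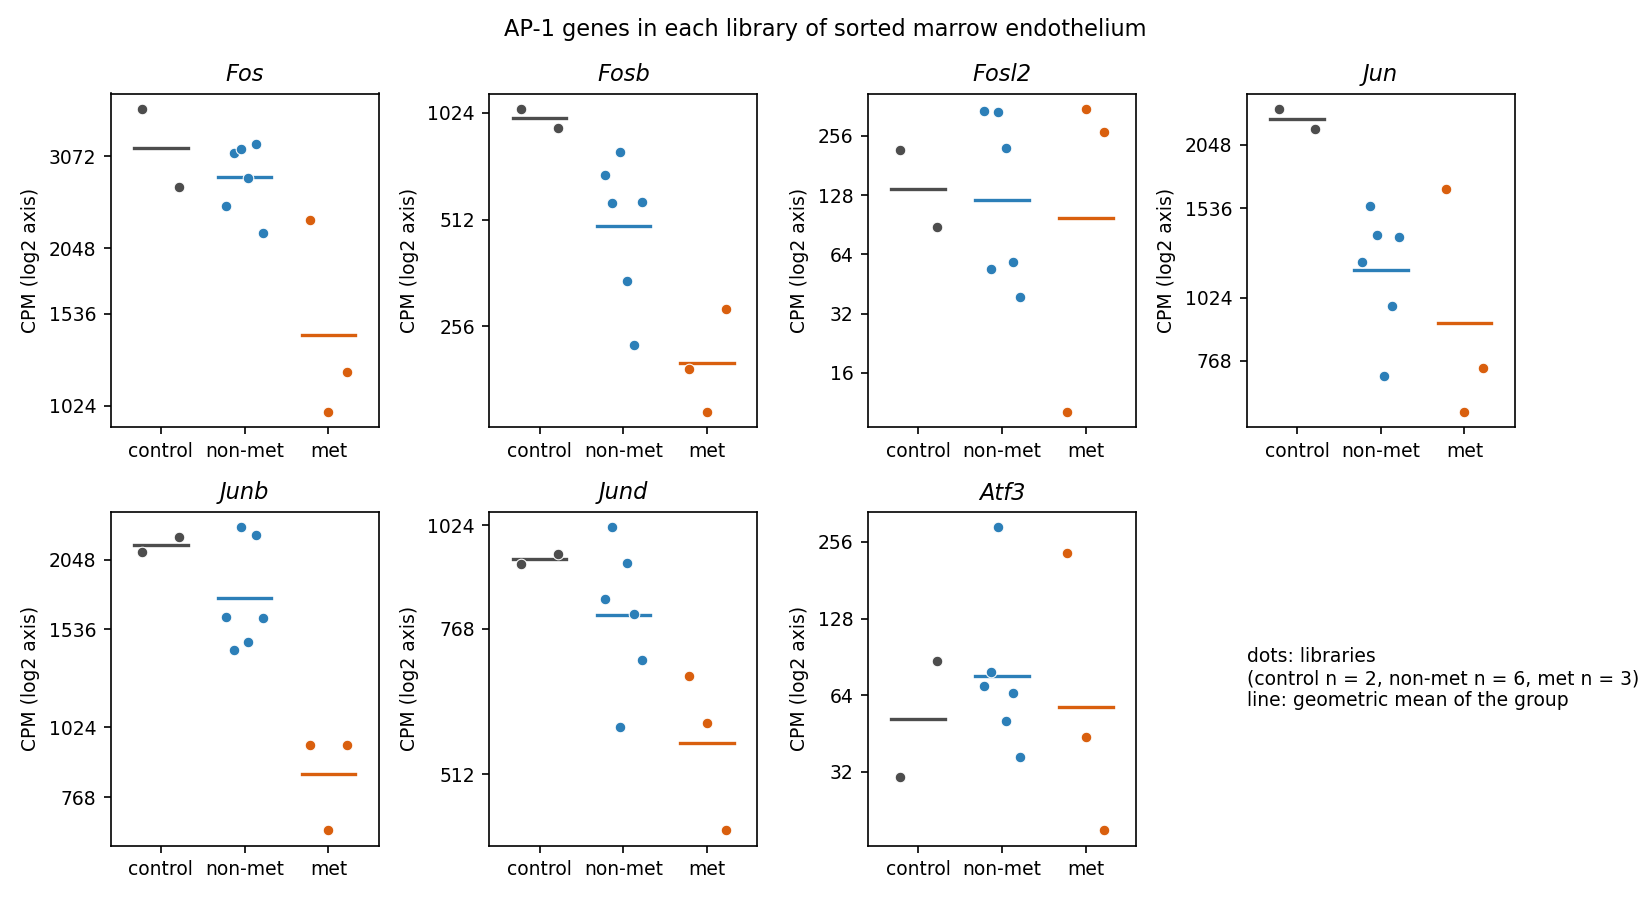
CPM of 7 AP-1 genes on a log2 axis, with a dot for each library and a line at the geometric mean of the group (control n = 2, non-met n = 6, met n = 3). All met libraries lie below all non-met libraries for *Junb*, at 669 to 952 against 1412 to 2341 CPM, while *Fosl2* and *Atf3* spread widely within groups.

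**Figure D3:**
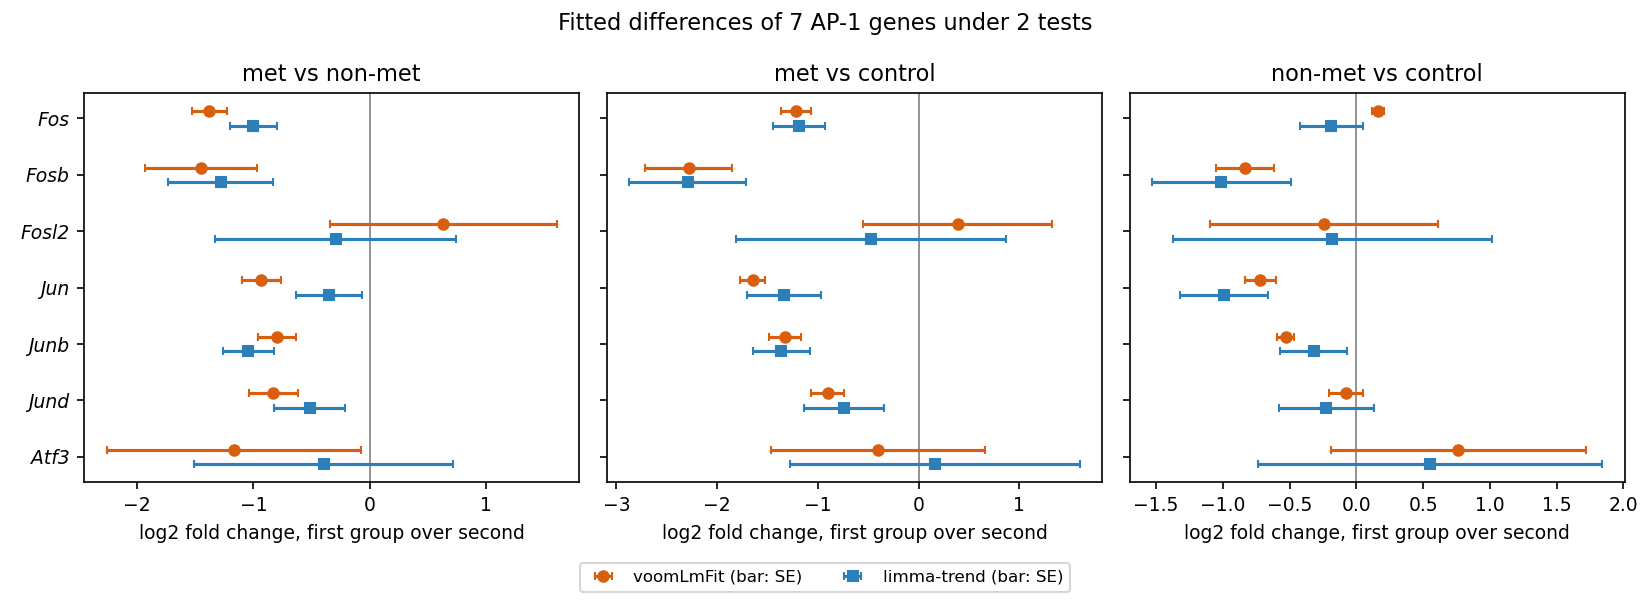
Log2 fold changes of the 7 tested members in the 3 comparisons, by voomLmFit (circles) and limma-trend (squares), with bars of 1 SE. For *Jun* in met against non-met the estimates are −0.93 and −0.35, and for *Junb* −0.80 and −1.05.

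The calls depended on the test. With limma-trend and with the edgeR quasi-likelihood test, 0 members passed in met against non-met. At an unadjusted p under 0.05 each of these tests had 3 members lower, where limma-trend had 1.76% and the quasi-likelihood test 5.31% of all genes lower. DESeq2 called 3 lower, which were *Fos*, *Fosb* and *Junb*, where it called 2.55% of all genes lower. All 24 alternatives gave *Fos*, *Jun*, *Junb*, *Fosb* and *Jund* a fitted difference below 0, the alternatives in scaling included.

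Pools that gave both kinds of library allow the same animals to be compared. In pools 2, 3 and 4, met minus non-met in log2 CPM was −0.66, −1.81 and −0.61 for *Junb*, −0.17, −1.67 and −1.24 for *Fos*, and −1.56, −2.43 and −0.26 for *Fosb*. For these 3 genes met lay below the mean of the non-met libraries in each pool, although for *Fos* in pool 2 by less than the distance between the 2 non-met libraries (0.51), with met 1 above non-met 6. *Jun* differed by 0.21, −1.16 and 0.05, so that only pool 3 had it lower. *Jund* differed by −0.33, 0.02 and −1.08, and *Atf3* by 2.10, −2.73 and −1.41. These differences are given without a test, since 3 pools are too few for an exact paired test to pass the threshold.

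**Figure D4:**
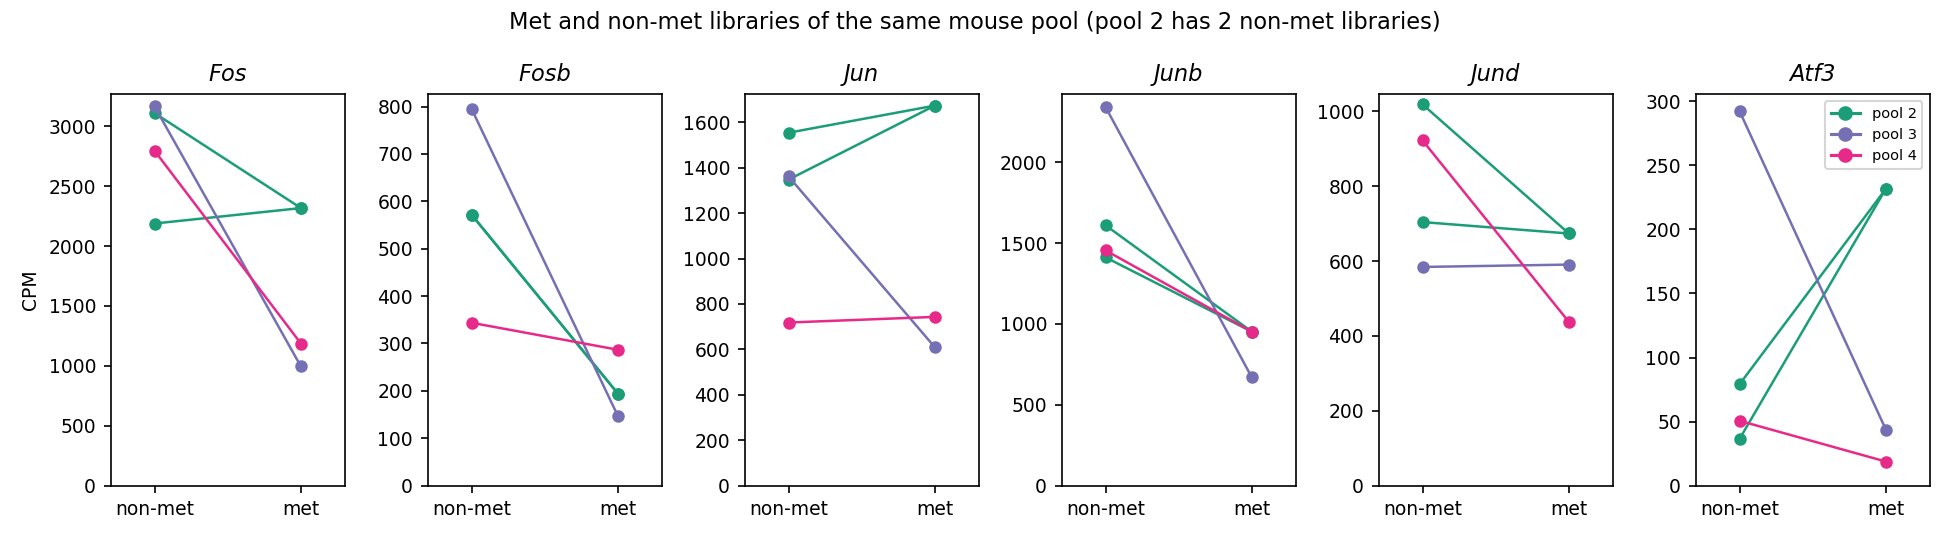
Lines join the non-met and met libraries of the same mouse pool, in CPM, for 6 AP-1 genes, and pool 2 has 2 non-met libraries and so 2 lines. *Junb* and *Fosb* descend on every line, and *Fos* on every line but that from non-met 6 (2188 CPM) to met 1 (2317 CPM), whereas *Jun* descends only in pool 3.

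Where libraries with granulocyte markers above 1000 CPM (non-met 1, 2, 5 and 6) were left out, a setting chosen after the data were seen, voomLmFit called *Fos* (log2 fold change −1.36, adjusted p = 1.05e-06) and *Junb* (−1.33, adjusted p = 0.00157) lower in met, and not *Jun* (−0.65, adjusted p = 0.979). The non-met group then held only non-met 3 and 4, and none from the pool of met 1. Stromal markers at 491 to 2584 CPM in met and 1234 to 3886 CPM in non-met libraries overlapped, and their part in these differences was not tested.

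Against healthy endothelium, met libraries were lower in 5 of the 7 members tested by voomLmFit, *Fos*, *Jun*, *Junb*, *Fosb* and *Jund*, where 0.511% of all genes were called lower and 1.2% in either direction. No member was higher, as 0.686% of all genes were. Fitted differences were below 0 for 6 of 7 members and for 52% of all genes. The same 5 had all met libraries below both controls, as had 12.3% of all genes. The median over the 7 was −1.21 against −0.09 over all genes. The comparison rests on 2 control libraries, and an exact test of 3 against 2 libraries cannot go below p = 0.1.

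*Fosb* showed the widest difference of these. Controls held 1051 and 928 CPM and met libraries 147 to 287, so that the mean control was 4.73 times the mean met level. Its log2 fold change was −2.28 with an SE of 0.432 (voomLmFit, adjusted p = 0.00416). The voomLmFit call was lost without met 2 (adjusted p = 0.118) and without met 3 (adjusted p = 0.151).

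*Jun* stood at 2415 and 2202 CPM in the controls, above each of the 9 libraries of burdened mice. For met the log2 fold change was −1.65 (SE 0.125, voomLmFit adjusted p = 3.27e-09), and with limma-trend the adjusted p was 0.373. Control levels of *Junb* were 2115 and 2244 CPM. In met it differed by −1.33 on the log2 scale (SE 0.156, adjusted p = 6.68e-06 by voomLmFit and 0.0503 by limma-trend).

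*Fos* stood at 3787 and 2680 CPM in the controls. In met its log2 fold change was −1.21 (SE 0.150, voomLmFit adjusted p = 1.34e-05), and the call was lost without control 2 (adjusted p = 0.321), met 1 (0.0529) or met 3 (0.122). *Jund* stood at 919 and 947 CPM, and its log2 difference of −0.90 (SE 0.165, voomLmFit adjusted p = 0.00277) was no longer called without met 3 (adjusted p = 0.304) or with libraries of a pool and group summed (0.122). With each library left out that difference ran from −0.98 to −0.58. Without met 3 the number of members called fell to 2, *Jun* and *Junb*. Without the 4 non-met libraries richest in granulocyte markers 4 members were called and *Jund* was not (voomLmFit adjusted p = 0.0511). *Atf3* (30.6 and 87.2 CPM in control) and *Fosl2* (216 and 87.8 CPM in control) did not pass, with voomLmFit adjusted p of 0.912 and 0.903.

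Again the tests differed. With limma-trend and the quasi-likelihood test 0 members passed, each with 4 members lower at an unadjusted p under 0.05, where limma-trend had 3.46% and the quasi-likelihood test 3.28% of all genes lower. DESeq2 called *Fosb* and *Junb* lower, as it did 0.762% of all genes.

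Non-met endothelium came from burdened bones but from marrow without visible tumour, and its comparison with healthy bone asks what the burdened animal differs in away from the tumour. By voomLmFit 2 of the 7 members, *Jun* and *Junb*, were lower in non-met libraries, where 0.452% of all genes were called lower, 0.184% higher and 0.636% in either direction. Fitted differences were below 0 for 5 of 7 members and for 55.9% of all genes. *Fosb* and *Jun* had all 6 non-met libraries below both controls, as had 5.03% of all genes. Here the median over the members, −0.24, was close to that of all genes, −0.33.

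*Jun* differed by −0.72 on the log2 scale (SE 0.118, voomLmFit adjusted p = 0.00197), with 718 to 1554 CPM in non-met libraries against 2202 and 2415 in control. Its exact permutation p of 0.0357 is the smallest that 28 assignments allow. *Junb* differed by −0.53 (SE 0.0639, voomLmFit adjusted p = 2.48e-05), although 2 non-met libraries, at 2341 and 2270 CPM, lay above both controls, and the exact permutation p was 0.393. With each library left out the fitted difference of *Junb* ran from −0.59 to −0.33. The call of *Junb* was lost without non-met 2 (voomLmFit adjusted p = 0.0807) and with libraries of a pool and group summed (0.196), and both calls were lost without the 4 non-met libraries richest in granulocyte markers, where *Junb* differed by −0.0046 and *Jun* by −1.03 (voomLmFit adjusted p = 0.994 and 0.319).

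*Fosb* stood at 227 to 795 CPM in non-met libraries with a median of 572, and differed by −0.84 on the log2 scale (SE 0.216, voomLmFit adjusted p = 0.0643). It was called with no sample weights (voomLmFit adjusted p = 0.0237), with library size scaling (0.00968) and without control 2 (0.0472). *Fos* gave 0.16 by voomLmFit (SE 0.0461, adjusted p = 0.0863) and −0.19 as an unweighted difference, so that its sign differed between these estimates. *Jund* (−0.07), *Fosl2* (−0.24) and *Atf3* (0.76) had voomLmFit adjusted p from 0.641 to 0.868. With limma-trend, the quasi-likelihood test and DESeq2, 0 members passed, each with 1 member, *Jun*, lower at an unadjusted p under 0.05, where they had 3.49%, 2.65% and 0.77% of all genes lower in that order.

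Genes that work with AP-1 were described by lists, of which the members themselves were left out. In met against non-met, voomLmFit called 0 genes of 21 tested bZIP partners, 28 kinases and serum response factors upstream, 22 feedback and mRNA decay genes, 29 known AP-1 targets, 26 other immediate early genes and 13 heat shock genes. Of the 139 entries tested over these lists, 4 were higher and 6 lower at an unadjusted p under 0.05 by voomLmFit, where 5.03% of all genes were higher and 2.21% lower, and limma-trend called 0 entries. By the same rule 13 were higher and 17 lower in met against control, where 6.15% and 7.91% of all genes were, and 13 higher and 15 lower in non-met against control, where 5.32% and 11.7% were. Median log2 fold changes were −0.09, 0.38, −0.24, 0.02, −0.37 and 0.69 in that order, against 0.08 over all genes. In met against control they were −0.69, 0.06, −0.60, 0.77, 0.08 and 0.17, against −0.09 over all genes, and in non-met against control −0.60, 0.11, −0.39, 0.97, 0.15 and −0.42, against −0.33. Some AP-1 targets had almost no reads in the controls, such as *Ccl2* and *Edn1* (0 CPM) and *Ptgs2* (at most 0.0489 CPM). *Il6* stood at 0 CPM in all met and control libraries, yet its fitted difference was 0.66. The target medians of 0.77 and 0.97 thus rest in part on such genes, and voomLmFit called 0 targets in both comparisons. Levels of the heat shock list overlapped between the groups, with sums of 3473 to 5639 CPM in control, 2414 to 4228 in non-met and 3663 to 4714 in met libraries.

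Against control, the lists held 3 genes that voomLmFit called, all lower, with 2 of 139 entries called in met, where 0.511% of all genes were called lower, and 2 of 139 in non-met, where 0.452% were. *Zfp36*, which encodes tristetraprolin, a protein that speeds the decay of AU-rich mRNAs, was lower in met, by −1.61 on the log2 scale (SE 0.375, voomLmFit adjusted p = 0.0303, limma-trend adjusted p = 0.437). *Egr1*, a zinc finger immediate early gene, stood at 909 and 745 CPM in the controls, 143 to 458 in non-met and 201 to 345 in met libraries. It was lower both in met (−1.87, SE 0.351, voomLmFit adjusted p = 0.00376) and in non-met (−1.93, SE 0.365, voomLmFit adjusted p = 0.0105), and met differed from non-met by 0.06 (voomLmFit adjusted p = 0.991). *Jdp2*, a bZIP protein that dimerises with JUN proteins and represses AP-1 sites, was called lower in non-met against control (−6.05, SE 1.35, voomLmFit adjusted p = 0.0346), with non-met libraries at 0, 9.29, 0, 1.81, 110.3 and 0 CPM against controls of 101 and 87.0 CPM, so that non-met 5 lay above both controls and the other non-met libraries far below. In met it stood at 0, 0.568 and 27.9 CPM, and the difference from control of −6.26 was not called (voomLmFit adjusted p = 0.137). limma-trend called none of the 3, with adjusted p of 0.876 and 0.548 for *Egr1* in met and in non-met and 0.936 for *Jdp2* in non-met.

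The genes whose levels ran most like those of *Junb* over the 11 libraries were *Dusp1* (Pearson r = 0.94), *Coasy* (0.89) and *Zfp36* (0.88), of 9516 genes with a mean of at least 10 CPM. *Dusp1* encodes a phosphatase that switches off MAP kinases. It stood at 223, 168 and 318 CPM in met libraries and at 333 to 725 CPM in non-met libraries. *Zfp36* stood at 211, 157 and 319 CPM in met and at 499 to 770 CPM in non-met libraries. Both were named here for their likeness to *Junb*, so that their order between the groups is a description. For *Fos* the nearest were *Mylk* (0.89), *Mrpl24* (0.83) and *Tpm1* (0.83), and for *Jun* *Phyhd1* (0.86), *Tmem204* (0.85) and *Zfp263* (0.83). Some of these were nearly absent from single libraries, which shapes their r. *Coasy* stood at 0.115 to 0.440 CPM in met libraries, *Mrpl24* at 0.459 CPM in met 3, and *Phyhd1* and *Zfp263* at 0 in non-met 4 and 5. Between members, r was highest for *Fos* with *Junb* (0.84), *Fosb* with *Junb* (0.74) and *Fos* with *Jund* (0.72), and ran from −0.40 to 0.21 for *Fosl2* with the others. These values describe 11 libraries that share pools, groups and depth, and carry no test.

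**Figure D5:**
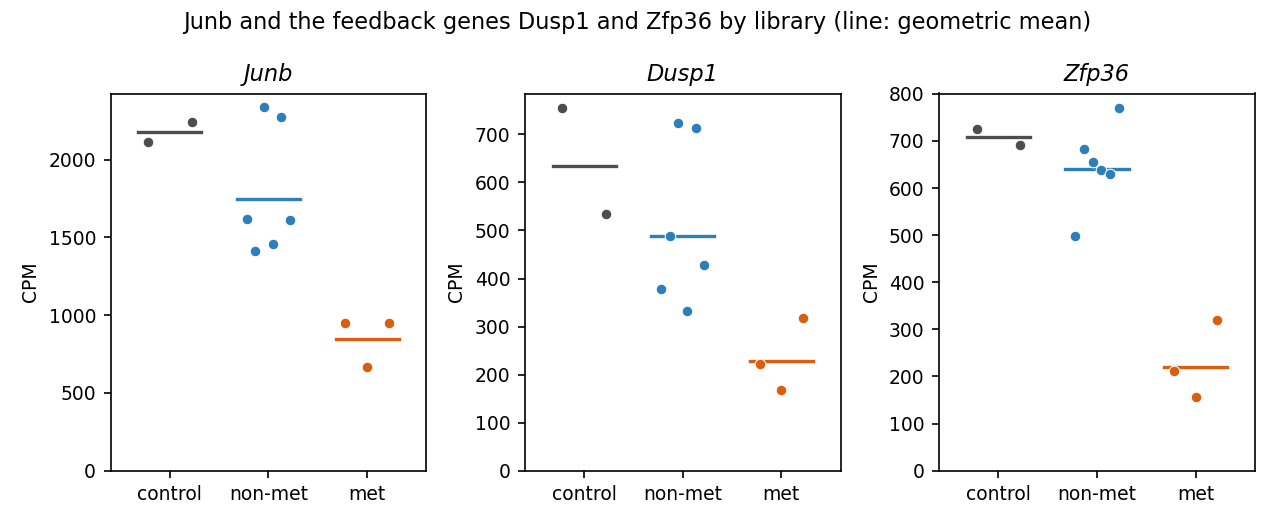
CPM of *Junb*, *Dusp1* and *Zfp36* in each library (dots) with the geometric mean of the group (line), on axes that start at 0. The latter genes were picked for their likeness to *Junb*, and in each panel the 3 met libraries lie lowest.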

How the data were processed

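The authors sequenced SMART-Seq v4 libraries as paired reads, aligned them to mm10 with Rsubread and used featureCounts with the annotation built into that package to count reads for each Entrez gene. What they deposited are raw counts that were not normalised, and whether strand was used in counting is not given in the sources used here. They removed 1 further library for a low rate of alignment, per the study's methods. The table of all libraries and the 11 tables of single libraries held the same counts. Groups and mouse pools were taken from the labels. Nothing in the labels says that libraries of a group and pool came from separate animals, and p-values measure only the spread between these libraries, which may be technical.

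From the counts, 1886 unnamed rows, 1794 predicted genes and 35 rows of ribosomal RNA were left out, and 23464 rows remained. The study's methods removed ribosomal and predicted genes, contigs outside the assembly and outdated Entrez IDs without defining these classes, so the rows left out here are an approximation, and a row without a name need not be outdated. Symbols came from RefSeq GRCm38.p6 for 25275 rows and GENCODE for 18. The filter was filterByExpr with a minimum count of 10 and a minimum total of 15, and scaling was by the trimmed mean of M values (TMM). Differences were fitted with voomLmFit of edgeR 4.0.16 with empirical sample weights (0.43 to 1.96), in 1 model of 3 groups, with limma 3.58.1 moderation in R 4.3.3 and Benjamini-Hochberg adjustment over all 11949 genes at a threshold of 0.05. Unweighted values stand beside the fitted ones. Log2 CPM used a prior count of 2, CPM and RPKM used the TMM-scaled library sizes and the length given in the count table, and exact two-sided permutation tests enumerated every assignment of libraries to the groups compared (84, 10 and 28). Tables were handled with pandas 2.3.3 and SciPy 1.17.1. The tests were tried on simulated counts for met against non-met, where more of the calls of voomLmFit with sample weights fell on unchanged than on changed genes. The quasi-likelihood test made far fewer such calls and limma-trend almost none, and the adjusted p of voomLmFit understated the share of false calls there. Both voomLmFit and limma-trend left most of the changed genes uncalled.

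All 8 members are named. Of the lists of partners, upstream kinases, feedback genes, targets, other immediate early genes and heat shock genes, the genes named are those voomLmFit called in any comparison, at most 3 a direction, list and comparison. By likeness the 3 genes with the highest Pearson r to *Fos*, *Jun* and *Junb* are named. The members and lists were chosen with earlier results of these data known.

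Alternatives were the quasi-likelihood test of edgeR, DESeq2 1.42.0, limma-trend, no sample weights, RLE (relative log expression) or library size scaling, no filter, all rows kept, mouse pool as a random or fixed block, libraries of a pool and group summed, and each library left out. Libraries without the granulocyte-rich non-met ones, and those with at least 5 CPM of *Krt8* and *Krt18* together, were alternatives chosen after seeing the data. The pool label pairs met and non-met libraries of the same animals. As a check, the Spearman correlation across 11949 genes of deviations from group means was −0.02 to 0.02 for the met and non-met pairs of a pool, and −0.21 and −0.17 for the pairs of non-met libraries of a pool. Deviations from a shared group mean lean below 0 by construction. The check thus showed no likeness within pools, and the pairing rests on the labels alone. Genes are not independent replicates.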

Additional observations from a re-analysis of the deposited data

Results flagged for a closer look

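In the non-met group, *Atf3* in non-met 3 stood apart by Dixon's criterion for 6 libraries, one of 9 measures examined (the 8 members and the mitochondrial share), a criterion that chance alone meets in about 1 in 20 groups. It stood at a log2 CPM of 8.19 (292 CPM), with a gap to the next library of 0.629 of the range of the group, just over the critical value of 0.625. *Fosl1* in non-met 3, at a log2 CPM of −0.58, met the criterion only because the other 5 non-met libraries were tied at 0 reads, where any single read does, so that the value carries no more than its 1 read.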

How the results depend on the processing

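The number of members that voomLmFit called moved with the choice of test and with single libraries left out. In met against non-met it was 3, and 0 with the quasi-likelihood test and with limma-trend, and 4 with no sample weights, and with each library left out it ran from 0 (without met 1 and without met 3) to 4 (without control 1 and without non-met 3, *Jund* added). In met against control it was 5, and 0 with the quasi-likelihood test, 2 with DESeq2 and 0 with limma-trend, and ran from 2 (without met 3) to 5 with each library left out. In non-met against control it was 2, and 0 with the quasi-likelihood test, DESeq2 and limma-trend, 4 with no sample weights, 1 with libraries of a pool and group summed, 0 without the granulocyte-rich non-met libraries, and from 1 (without non-met 2) to 3 with each library left out. Signs turned for genes that voomLmFit had not called in that comparison. In met against non-met, *Fosl2* gave −0.29 with limma-trend, −0.55 without the granulocyte-rich libraries and −0.99 to 1.24 with each library left out, and *Atf3* −1.54 to 0.074 with each left out. In met against control, *Atf3* gave 0.73, 0.64 and 0.16 with the quasi-likelihood test, DESeq2 and limma-trend and −1.16 to 0.88 with each library left out, and *Fosl2* gave −0.47 with limma-trend and −1.29 to 1.13 with each left out. In non-met against control, *Fos* gave −0.19, −0.11 and −0.19 with those tests, −0.11 with library size scaling, −0.31 with libraries summed, −0.31 without the granulocyte-rich libraries and −0.27 to 0.24 with each library left out, while voomLmFit called it higher with no sample weights (0.17, adjusted p = 0.0371), with no filter (0.22, adjusted p = 2.61e-05) and without control 1, non-met 3 or met 3 (adjusted p = 0.0101, 0.0162 and 0.0314). *Fosl2* gave 0.21 with the quasi-likelihood test, 0.28 with DESeq2, 0.97 without the granulocyte-rich libraries and −0.76 to 0.53 with each left out, *Jund* 0.027 with RLE scaling and −0.31 to 0.019, and *Atf3* −0.077 to 1.44. The cause of these shifts was not tested. With a fixed replicate block for the pools, met against non-met had 2 members called, *Fos* (−1.27) and *Junb* (−1.31), and *Jun* was lost. With pool as a random replicate block (correlation −0.04) the counts were 3, 5 and 2 as before, and no other call changed. Within the 7 libraries with *Krt8* and *Krt18*, *Fos* (−1.44) and *Junb* (−1.36) were called in met against non-met. RLE scaling moved the median of all genes in met against non-met from 0.08 to −0.09. The lowest depth, 733342 counts in non-met 4, left 28 reads for *Atf3*.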
